A study of Mus musculus with 6 samples.

Results

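A set of 10 genes of sulfur amino acid, sulfide and pantetheine metabolism was followed in mouse ovarian granulosa cells treated with GSK4112 and in control cells. They were taken by name from the 27151 gene IDs of the deposited table: Tst, Mpst, Ethe1, Suox, Cbs, Cth, Cdo1, Gclc, Gclm and Vnn1. The list was chosen by metabolic role and with the measured differences in FPKM between GSK4112 and control cells already known. Those differences are therefore given as a description, and a count over the 10 genes supports nothing further. GSK4112 is a synthetic agonist of REV-ERBα, the product of Nr1d1, a transcriptional repressor of the circadian clock. Granulosa cells nurse the oocyte within the follicle. Here they were released by puncturing mouse follicles, grown for 24 h in medium with serum and starved of it for 12 h. They then spent 24 h with GSK4112 (3 libraries) or without it (3 control libraries), and the medium was changed every 12 h. No dose is given here, since the labels state it in a unit that is no concentration. The protocols describe cultured cells, although the series' own design text places the treatment in vivo. No strain, age or pooling of mice was stated, nor whether the libraries came from separate cultures, and p-values thus reflect only how far these libraries vary, which may be technical.

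Cysteine stands at the centre of these reactions. Cystathionine beta-synthase (Cbs) and cystathionine gamma-lyase (Cth) build it from homocysteine, glutamate-cysteine ligase (Gclc and Gclm) commits it to glutathione, and cysteine dioxygenase (Cdo1) commits it to taurine and sulfate. Sulfide made from cysteine is oxidised in mitochondria through persulfide, thiosulfate and sulfite by enzymes that include the dioxygenase of Ethe1, the sulfurtransferase of Tst and the sulfite oxidase of Suox. Vanin-1 (Vnn1) cleaves pantetheine, a breakdown product of coenzyme A, into pantothenate and the thiol cysteamine. Granulosa cells also supply the oocyte with cysteine and with glutathione precursors.

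Values are FPKM (fragments per kilobase of exon, scaled to library depth), with mean ± SD and n = 3 libraries per group. The low values implied 16559256 to 17382510 fragments in the GSK4112 libraries and 16638144 to 18158274 in the control libraries. Of 8 listed granulosa markers, 7 averaged 1 FPKM or more. Inha was at 1369.9 to 2244.9 FPKM in GSK4112 and 1834.3 to 2173.0 FPKM in control. Foxl2 was at 29.9 to 50.3 FPKM in GSK4112 and 47.7 to 64.4 FPKM in control. Fshr was low, at 2.65 to 4.36 FPKM in GSK4112 and 2.75 to 5.43 FPKM in control. Amh was lower still, at 0.253 to 0.448 FPKM in GSK4112 and 0.36 to 0.66 FPKM in control. The libraries numbered 1 stood apart in each group. Markers of dividing cells (7 genes) summed to 83.3, 15.2 and 13.6 FPKM in GSK4112 replicates 1 to 3, against 111, 28.5 and 31.3 FPKM in control replicates 1 to 3. None of the 7 was called by limma without the replicate number as a block, and 4 were lower with it (Top2a, Ccnb1, Cdk1 and Plk1, adjusted p = 0.0356, 0.0257, 0.0113 and 0.0306). The 9 markers of theca and stroma summed to 168, 81.7 and 92.9 FPKM in GSK4112, against 268, 58.5 and 61.1 FPKM in control. Most of these sums came from Acta2, and the defining theca gene Cyp17a1 stayed at 0 to 0.0555 FPKM in all 6 libraries. Lhcgr, of the same list, was at 25.3, 8.33 and 6.94 FPKM in GSK4112, against 3.39, 5.15 and 6.1 FPKM in control. Its groups did not overlap (limma adjusted p = 0.2853, and 0.1681 with the block). Endothelial markers (0.517 to 1.0 FPKM over 5 genes), oocyte markers (0.165 to 3.28 over 6) and red cell markers (0.0246 to 0.377 over 2) were near 0. Leukocyte markers (7 genes) summed to 39.4, 17.0 and 19.5 FPKM in GSK4112 and 41.2, 13.7 and 7.55 FPKM in control, mostly from Lyz2 (30.1, 11 and 12.4 FPKM in GSK4112, against 34.2, 9.86 and 4.29 FPKM in control). The defining leukocyte genes Ptprc and Adgre1 were at 0.13 FPKM or less. Cd68 was at 5.69, 4.56 and 5.54 FPKM in GSK4112, against 4.47, 2.67 and 2.2 FPKM in control, with groups that did not overlap (limma adjusted p = 0.2006, 0.0605 with the block, and 0.0278 without both replicate 1 libraries). Surface epithelium markers (6 genes) summed to 42.4, 18.1 and 16.5 FPKM in GSK4112, against 117, 54.6 and 44.4 FPKM in control, mostly from Krt8 and Krt18, so that the highest GSK4112 sum lay just under the lowest control sum. None of the 6 was called without the block, and Krt8 and Krt18 were lower with it (limma adjusted p = 0.0038 and 0.0018). The rest had overlapping groups and were not called with it, Krt7 being too low for the test. Means of Krt7, Krt19 and Upk3b were 0.29, 0.617 and 0.906 FPKM in GSK4112, against 0.304, 1.45 and 1.23 FPKM in control. Msln went the other way, with means of 1.4 FPKM in GSK4112 and 1.09 FPKM in control. Of 8 granulosa markers 1, Hsd17b1, was called lower (limma adjusted p = 0.0187, and 0.0024 with the block). Hsd17b1 was at 29.4, 21.6 and 24.7 FPKM in GSK4112, against 72.4, 62.0 and 58.4 FPKM in control. Cyp11a1 was at 446, 388 and 420 FPKM in GSK4112, against 559, 889 and 805 FPKM in control, with groups that did not overlap. Its limma adjusted p was 0.1029, 0.0573 with the block, and 0.0103 without both replicate 1 libraries. The part of these marker differences in the results was not tested.

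**Figure D1:**
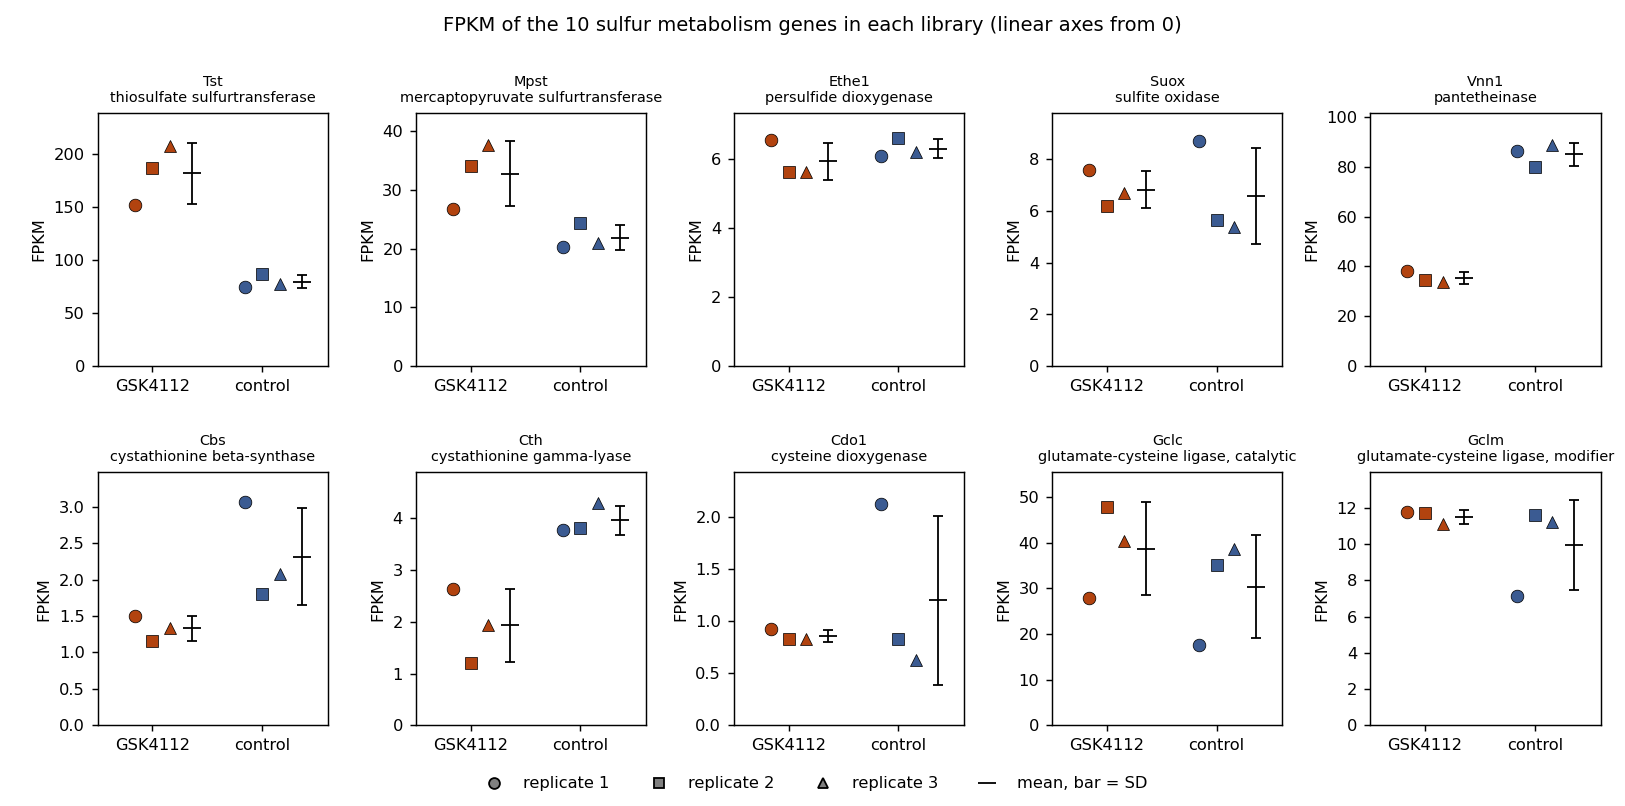
FPKM of the 10 genes in each of the 3 GSK4112 libraries (left in each panel) and 3 control libraries (right), on linear axes from 0, with the group mean and SD beside the points. The groups do not overlap for Tst, Mpst, Vnn1, Cbs and Cth, and control replicate 1 lies apart from the other control libraries for Cbs, Suox, Cdo1, Gclc and Gclm.

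Within the 10 genes the largest differences were a higher level of Tst and a lower level of Vnn1 in GSK4112 cells. Differences are GSK4112 minus control on the log2(FPKM + 1) scale, which understates changes of low genes, and p-values are from limma, adjusted by Benjamini-Hochberg over the 12181 genes whose FPKM averaged 1 or more. All 10 genes passed that filter. Of the 10, Tst was called higher and Vnn1 lower at an adjusted p under 0.05, and 8 were not called. Over all genes tested, 1.03% were called, 0.41% higher and 0.624% lower (50 and 76 genes, or 39 and 105 under median-of-ratios scaling). A second fit treated the replicate number in the sample titles as a block, although no label says that these numbers pair the libraries. Deviations from the group means correlated at 0.665 for the libraries numbered 1. GSK4112 replicates 2 and 3, however, each correlated better with the control library of the other number. In that fit Tst and Mpst were higher, and Vnn1 and Cth lower, where 6.89% of all genes were called (3.07% higher and 3.82% lower). Without both replicate 1 libraries the same 4 genes were called, where 7.03% of all genes were (3.23% higher and 3.8% lower). The groups did not overlap for 5 of the 10 genes, with GSK4112 above for 2 and below for 3. Among all genes tested they did not overlap for 23.6% (15.7% above and 7.9% below). In bulk RNA, fewer cells of a kind and less RNA per cell cannot be told apart.

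**Figure D2:**
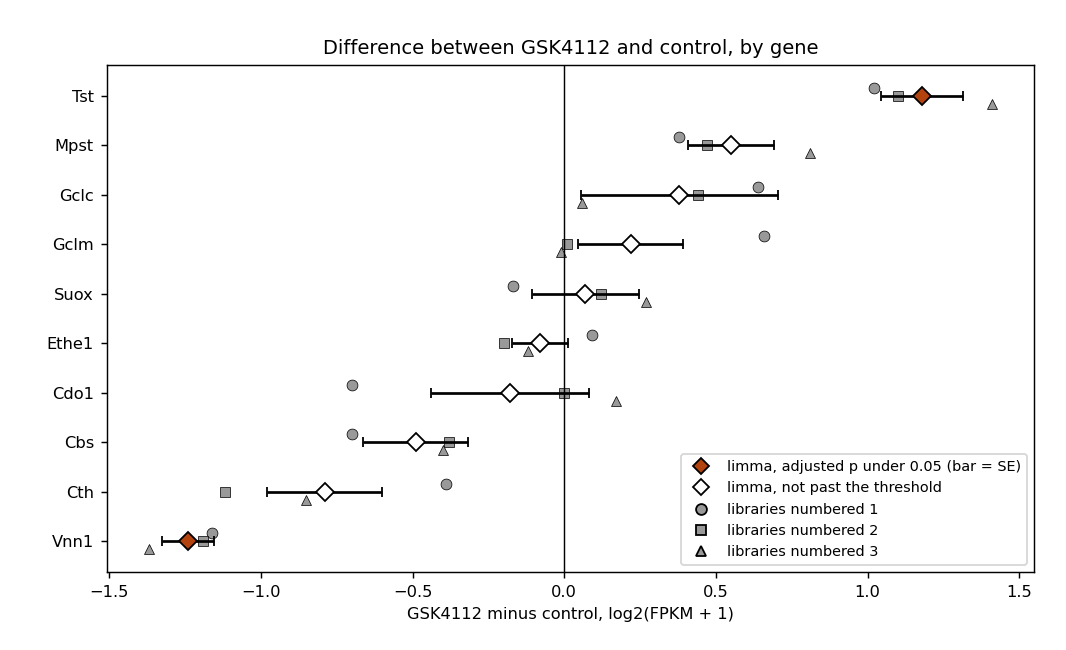
Difference between GSK4112 and control on the log2(FPKM + 1) scale for each gene, with diamonds for the limma estimate (bar, SE; filled where the adjusted p is under 0.05) and grey symbols for the difference between libraries of the same number. Tst (1.18) and Vnn1 (-1.24) are filled, and the 3 grey symbols lie on the same side of 0 as the estimate for Tst, Mpst, Vnn1, Cbs, Cth and Gclc.

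The sulfurtransferase genes had the largest differences towards higher levels. Tst encodes the mitochondrial thiosulfate sulfurtransferase, also called rhodanese, known for turning cyanide and thiosulfate into thiocyanate. Tst (ENSMUSG00000044986; GRCm38 chr15:78399556-78405907, minus strand) was at 152, 187 and 208 FPKM in GSK4112 replicates 1 to 3, against 74.5, 86.5 and 77.7 FPKM in control replicates 1 to 3. Every GSK4112 library was above every control library. The means were 182 ± 28.6 FPKM in GSK4112 and 79.6 ± 6.25 FPKM in control, 2.29 times as high. Tst rose by 1.18 ± 0.135 (SE) on the log2 scale (limma adjusted p = 0.0257, and 0.0053 with the block). It held rank 40 of the 12181 genes by size of rise. The call ended without control replicate 2 (0.0792), control replicate 3 (0.129), GSK4112 replicate 2 (0.176) or GSK4112 replicate 3 (0.125), and without a filter (0.0689), while the log2 difference stayed between 1.07 and 1.3 over all 20 alternatives. Without both replicate 1 libraries it was 1.26 (adjusted p = 0.0039).

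Mpst encodes 3-mercaptopyruvate sulfurtransferase, which moves sulfur from mercaptopyruvate to thiols and is a source of persulfide and sulfide. Mpst (ENSMUSG00000071711; GRCm38 chr15:78406416-78414013, plus strand) was at 26.8, 34.1 and 37.6 FPKM in GSK4112, against 20.3, 24.4 and 21 FPKM in control. The groups did not overlap, but GSK4112 replicate 1 was close to control replicate 2. The means were 32.8 ± 5.51 FPKM in GSK4112 and 21.9 ± 2.19 FPKM in control, 1.5 times as high. The difference of 0.55 ± 0.141 did not pass the threshold (limma adjusted p = 0.1266), and Mpst was called higher with the block (0.0369) but not with the block and median-of-ratios scaling (0.0515). It was also called without both replicate 1 libraries (0.64, adjusted p = 0.0281).

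Tst and Mpst are paralogs that lie head to head on chromosome 15, with 508 bases between their annotated ends. Their coding sequences are each 891 bases long and were identical at 68.5% of 869 aligned bases. The stretches around the active-site cysteine are shown because they carry the catalytic residue and show how far the paralogs differ in letters. The capitals mark the codon of that cysteine, codon 248 in each gene, and the stretches run 5′ to 3′ on the coding strand.
Tst: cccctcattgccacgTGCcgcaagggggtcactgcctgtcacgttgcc
Mpst: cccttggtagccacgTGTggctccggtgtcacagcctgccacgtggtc
These bases lie in exon 2 of Tst (GRCm38 chr15:78399852-78399899) and exon 3 of Mpst (chr15:78413510-78413557), from GENCODE M21. Of the 48 bases, 34 are identical, and the longest run shared by the complete coding sequences is 18 bases. At an identity of 95% or more, the longest match of any Tst transcript to another gene was 67 bases (2.54% of the transcript), and of any Mpst transcript 42 bases (3.28%). Such matches were found to 1086 other genes for Tst and to 4 for Mpst.

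The ratio of the paralogs was nearly constant within a group and differed between the groups. The Tst level was 5.65, 5.47 and 5.54 times the Mpst level in the GSK4112 libraries, against 3.66, 3.54 and 3.69 times in the control libraries. The ratio averaged 5.55 ± 0.0901 in GSK4112 and 3.63 ± 0.0787 in control. GSK4112 replicate 1 was lowest of its group in Tst and in Mpst, and control replicate 2 highest of its group in each, while the ratio moved little. These ratios come from the same comparison that was known when the genes were listed and carry no test. Not all values of either gene came out as whole fragments with the exon length of GENCODE M21, so the authors' length for them may differ and the size of the ratio depends on it, but its relative difference between groups does not.

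**Figure D3:**
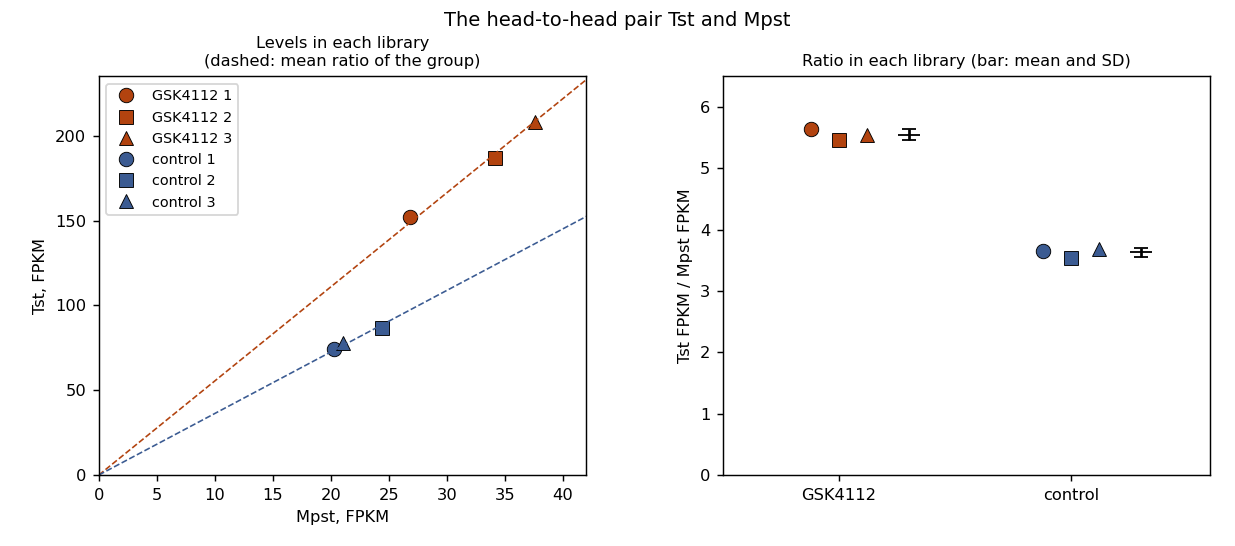
Left, Tst against Mpst FPKM in each library on linear axes from 0, with dashed lines of slope 5.55 (GSK4112) and 3.63 (control), the mean ratios of the groups. Right, the ratio in each library with mean and SD. The 3 GSK4112 libraries lie at 5.47 to 5.65 and the 3 control libraries at 3.54 to 3.69.

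RefSeq promoter windows on GRCm38.p6, each 250 bases before to 50 bases after a transcript start, were found for 5 of the 10 genes (8 windows, of Mpst, Ethe1, Suox, Cbs and Gclm). They were searched on each strand for TGACNNNGC, the core of the antioxidant response element bound by NRF2, for TGATGNAA, the core of the C/EBP-ATF response element bound by ATF4, and for AGGTCA, the nuclear receptor core site on which REV-ERB proteins also bind. TGACNNNGC was found in 2 of the 8 windows, in Mpst and Gclm, and in 12.4% of all 32851 windows. TGATGNAA was found in none of the 8 and in 3.97% of all windows, and AGGTCA in none of the 8 and in 16.3% of all windows. A match describes letters and not a bound site. The windows with a match are printed with the match in capitals, one from the paralog of Tst and one from glutathione synthesis, whose enzyme genes are textbook targets of NRF2.
Mpst: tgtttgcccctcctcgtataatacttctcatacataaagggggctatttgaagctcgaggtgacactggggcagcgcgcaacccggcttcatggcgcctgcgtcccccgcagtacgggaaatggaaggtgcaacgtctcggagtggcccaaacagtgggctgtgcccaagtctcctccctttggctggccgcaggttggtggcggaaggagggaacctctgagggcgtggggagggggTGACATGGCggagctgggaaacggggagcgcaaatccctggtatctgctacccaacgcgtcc
Gclm: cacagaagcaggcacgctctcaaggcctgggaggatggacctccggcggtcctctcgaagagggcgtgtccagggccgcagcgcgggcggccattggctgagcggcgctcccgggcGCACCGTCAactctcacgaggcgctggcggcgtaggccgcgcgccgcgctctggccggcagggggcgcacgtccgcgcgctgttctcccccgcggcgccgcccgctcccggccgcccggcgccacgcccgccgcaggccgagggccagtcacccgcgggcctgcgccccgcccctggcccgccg
The Mpst window is chr15:78406551-78406850 on the plus strand, and its match ends 3 bases before the transcript start. The Gclm window is chr3:122245307-122245606 on the plus strand, and its match, on the opposite strand, ends 125 bases before the start.

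The other members of mitochondrial sulfide oxidation were not called in either fit. Ethe1, the persulfide dioxygenase (ENSMUSG00000064254; chr7:24587543-24608925, plus strand), was at 6.54, 5.62 and 5.62 FPKM in GSK4112, against 6.09, 6.6 and 6.2 FPKM in control. The groups overlapped, and the difference of -0.08 ± 0.0921 had a limma adjusted p of 0.7138. Suox, the sulfite oxidase that ends the pathway in sulfate (ENSMUSG00000049858; chr10:128669894-128674073, minus strand), was at 7.6, 6.19 and 6.7 FPKM in GSK4112, against 8.71, 5.64 and 5.39 FPKM in control. Its highest value was in control replicate 1, and the groups overlapped (0.07 ± 0.176, adjusted p = 0.872). The Tst level was 23.2 to 37.1 times that of Ethe1 in GSK4112 libraries and 12.2 to 13.1 times in control libraries. The size of these ratios also depends on the exon length of Tst. Ethe1 shares 99 bases with the antisense gene Zfp575, which was at 0.0502 ± 0.0248 FPKM in GSK4112 and 0.0834 ± 0.0631 FPKM in control.

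Vnn1 was the 1 gene of the 10 called lower. Vanin-1 is a membrane-anchored pantetheinase, and its gene is a known target of PPARα in mouse liver. Vnn1 (ENSMUSG00000037440; chr10:23894688-23905343, plus strand) was at 38.3, 34.5 and 33.8 FPKM in GSK4112, against 86.6, 79.9 and 88.7 FPKM in control. All GSK4112 libraries lay well below all control libraries, and the libraries numbered 1 did not stand apart. The means were 35.5 ± 2.44 FPKM in GSK4112 and 85.1 ± 4.6 FPKM in control, so that control was 2.39 times as high. Vnn1 fell by 1.24 on the log2 scale (SE 0.0862, limma adjusted p = 0.0088, and 0.0025 with the block). It held rank 70 of the 12181 genes by size of fall. The call ended without control replicate 3 (0.0523), GSK4112 replicate 2 (0.0813) or GSK4112 replicate 3 (0.107), with the log2 difference between -1.3 and -1.2 over the 20 alternatives. No transcript of Vnn1 matched another gene at 95% identity, so its paralog Vnn3 does not share its sequence at that limit.

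Vnn3, a second pantetheinase gene 24844 bases away, was too low for the test. It had 1, 0 and 0 fragments in GSK4112 replicates 1 to 3, against 5, 8 and 8 fragments in control replicates 1 to 3. The direction was that of Vnn1, at counts that allow no firm statement. Ppara was below the filter, at 0.401, 0.362 and 0.495 FPKM in GSK4112 and 0.287, 0.378 and 0.486 FPKM in control, and its groups overlapped.

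Tst and Vnn1 also stood in a different order in the 2 groups. Tst made up 55.0 to 59.9% of the summed FPKM of the 10 genes in GSK4112 libraries, against 30.4 to 33.8% in control libraries. Vnn1 made up 9.72 to 13.9% in GSK4112, against 31.2 to 37.7% in control. In GSK4112 the Tst level was 3.96 to 6.17 times that of Vnn1, while in control the genes were nearly equal, at 0.86, 1.08 and 0.875 times, so that their order in control did not hold in every library. By mean level in GSK4112, Tst was followed by Gclc, Vnn1 and Mpst (38.7 ± 10.1, 35.5 ± 2.44 and 32.8 ± 5.51 FPKM), which do not differ beyond their spread. Then came Gclm (11.5 ± 0.403), Suox and Ethe1 (6.83 ± 0.716 and 5.92 ± 0.531), Cth and Cbs (1.93 ± 0.708 and 1.33 ± 0.174) and Cdo1 (0.861 ± 0.0577). Suox and Ethe1 overlapped, and so did Cth and Cbs. By mean level in control, the order after Vnn1 and Tst was the same. It ran from Gclc (30.4 ± 11.3) and Mpst (21.9 ± 2.19) down to Cdo1 (1.2 ± 0.811), and it did not hold in every library. In control replicate 1 Gclc was below Mpst (17.5 and 20.3 FPKM) and Gclm below Suox (7.12 and 8.71 FPKM). Among control libraries, Suox was above Ethe1 only in replicate 1 (8.71 and 6.09 FPKM). Not all values of Tst, Mpst, Cbs and Cdo1 came out as whole fragments with the exon length used. The authors' length for them may differ, and these shares, ratios and orders depend on it.

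The genes of the transsulfuration pathway, which were at low levels throughout, were lower in GSK4112 cells without passing the threshold. Cth, whose enzyme releases cysteine from cystathionine (ENSMUSG00000028179; chr3:157894248-157925077, minus strand), was at 2.63, 1.21 and 1.94 FPKM in GSK4112, against 3.77, 3.82 and 4.29 FPKM in control. The groups did not overlap, and the fragments behind these values were 124, 56 and 94 in GSK4112 and 191, 184 and 199 in control. The difference was -0.79 ± 0.189 (limma adjusted p = 0.1126), and Cth was called lower with the block (0.0397) and without both replicate 1 libraries (-0.99, adjusted p = 0.0283). Control was 2.06 times as high by the means of 1.93 ± 0.708 FPKM in GSK4112 and 3.96 ± 0.285 FPKM in control.

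Cbs encodes the heme-containing enzyme that joins homocysteine to serine. Cbs (ENSMUSG00000024039; chr17:31608894-31637238, minus strand) was at 1.5, 1.16 and 1.33 FPKM in GSK4112, against 3.06, 1.8 and 2.07 FPKM in control. The groups did not overlap, and control replicate 1 lay farthest from the GSK4112 libraries. The difference was -0.49 ± 0.173 (limma adjusted p = 0.2268, and 0.077 with the block), and it was -0.34 without control replicate 1. It was not called in any of 19 alternatives. The ratio of Cth to Cbs overlapped between the groups, at 1.05 to 1.75 in GSK4112 and 1.23 to 2.12 in control.

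Cdo1, whose enzyme oxidises cysteine to its sulfinate (ENSMUSG00000033022; chr18:46713193-46728395, minus strand), was at 0.928, 0.829 and 0.827 FPKM in GSK4112, against 2.12, 0.833 and 0.629 FPKM in control. It stood at the edge of the filter with a mean of 1.03 FPKM, and its lowest library held about 17 fragments. The groups overlapped, and control replicate 1 was far above the other 5 libraries. The difference was -0.18 ± 0.26 (limma adjusted p = 0.7686), and it turned to 0.11 without that library.

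The glutamate-cysteine ligase genes were not called, and control replicate 1 held the lowest level of each. Gclc, the catalytic subunit (ENSMUSG00000032350; chr9:77754535-77794485, plus strand), was at 27.9, 47.9 and 40.4 FPKM in GSK4112, against 17.5, 35.0 and 38.7 FPKM in control. Replicate 1 was the lowest library of each group, and the groups overlapped. The difference was 0.38 ± 0.325 (limma adjusted p = 0.5925, and 0.1228 with the block), and 0.04 without control replicate 1. Gclm, the modifier subunit that raises the activity of the ligase (ENSMUSG00000028124; chr3:122245557-122270732, plus strand), was at 11.8, 11.7 and 11.1 FPKM in GSK4112, against 7.12, 11.6 and 11.2 FPKM in control. Here control replicate 1 alone was low, and without it the difference of 0.22 ± 0.173 (adjusted p = 0.5605) was 0.02. The sums of dividing-cell markers were highest in replicate 1 of each group. In GSK4112 that library was lowest for Gclc (27.9 FPKM), while its Gclm level (11.8 FPKM) was close to the others (11.7 and 11.1 FPKM). The part of these marker sums in the levels of Gclc and Gclm was not tested. Gclm shares 297 bases with the antisense transcript Gm17494, which was at 0.157 ± 0.0905 FPKM in GSK4112 and 0.0669 ± 0.0387 FPKM in control.

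Around these enzymes, 95 other genes of sulfur metabolism were listed by textbook role in 9 lists. Of these, 93 were in the table and 78 were tested. None was called in limma (0%, beside 1.03% of all genes), with 17 of 78 at an unadjusted p under 0.05, beside 2065 of all 12181 genes. In limma-voom 1 was called (Slc3a2), beside 171 of 12170 genes. With the block 7 were higher and 3 lower, 12.8% beside 6.89% of all genes. Their median difference was 0.04, beside 0.0543 over all genes tested. Under median-of-ratios scaling their median was -0.013, beside 0.003 over all genes tested. The 10 genes called with the block belonged to cystine and cysteine transport (3), glutathione synthesis, recycling and breakdown (3) and the transcription regulators (4). They are named after their values were seen, as are Gss, Sqor, Slc7a11, Vnn3 and Ppara, which are given for their roles.

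**Figure D4:**
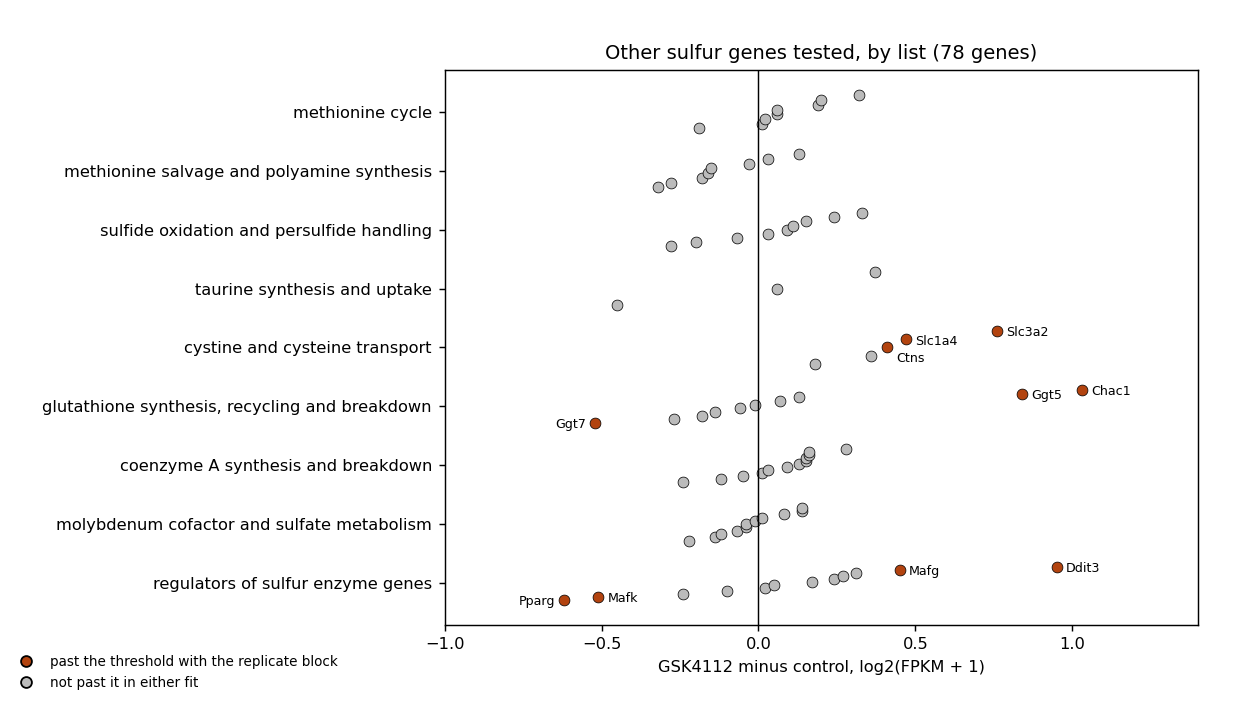
Differences between GSK4112 and control on the log2(FPKM + 1) scale for the 78 other sulfur genes tested, 1 point per gene and 1 row per list. None passed the threshold without the block, and the 10 filled and named points passed it with the block.

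Transport of cystine and cysteine had the list median farthest from 0, with all 5 genes tested above 0, a median of 0.41 and groups with GSK4112 above control in 4, where 15.7% of all genes tested had such groups. Slc3a2, the heavy chain that carries several amino acid transporters to the membrane, was at 109, 87.8 and 93.2 FPKM in GSK4112, against 64.8, 51.4 and 53.9 FPKM in control. Its difference of 0.76 ± 0.125 missed the threshold (limma adjusted p = 0.0526, and 0.0082 with the block). Ctns, which exports cystine from lysosomes, was at 10.5, 11.8 and 11.1 FPKM in GSK4112, against 8.02, 8.17 and 8.1 FPKM in control (adjusted p = 0.0683, and 0.0402 with the block). Slc1a4, a carrier of small neutral amino acids, differed by 0.47 ± 0.129 (0.1431, and 0.0281 with the block). Slc7a11, the light chain that with SLC3A2 forms the cystine-glutamate exchanger, was below the filter. It was at 0.765, 0.451 and 0.488 FPKM in GSK4112, against 0.0831, 0.121 and 0.134 FPKM in control, with 402 fragments summed over GSK4112 and 81 over control. Its groups did not overlap, and without a filter the difference of 0.49 had an adjusted p of 0.1488.

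Among 10 tested genes of glutathione synthesis, recycling and breakdown, the median was -0.03. Chac1, which degrades glutathione in the cytosol, was at 11.2, 7.6 and 9.52 FPKM in GSK4112, against 4.64, 3.04 and 4.66 FPKM in control (1.03 ± 0.184, limma adjusted p = 0.0621, and 0.0053 with the block). Ggt5, of the gamma-glutamyl transferase family that cleaves glutathione outside the cell, differed by 0.84 ± 0.201 at a low level (adjusted p = 0.1126, and 0.0291 with the block), and Ggt7 by -0.52 ± 0.171 (0.2062, and 0.0494 with the block). Gss, the synthetase that completes glutathione, was at 3.26, 3.2 and 3.29 FPKM in GSK4112 and 3.38, 3.18 and 2.6 FPKM in control. The most abundant members, Cndp2 and Lap3, differed by -0.06 ± 0.0951 and -0.14 ± 0.0842.

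In the remaining enzyme lists no gene was called with or without the block. Of 9 tested genes of sulfide oxidation and persulfide handling the median was 0.09. Sqor, the quinone oxidoreductase that starts mitochondrial sulfide oxidation, was at 3.0, 2.16 and 2.31 FPKM in GSK4112 and 2.17, 2.68 and 1.99 FPKM in control. The most abundant were the aminotransferases Got1 (-0.28 ± 0.179) and Got2 (-0.2 ± 0.121). Of 12 tested genes of coenzyme A synthesis and breakdown the median was 0.11, with the pantothenate kinase Pank3 (0.03 ± 0.124) and the coenzyme A synthase Coasy (0.13 ± 0.0919) as the most abundant. The 8 genes of the methionine cycle had a median of 0.06, with the methionine adenosyltransferase Mat2a at 0.32 ± 0.108 and Ahcyl1 at 0.01 ± 0.0719. The 8 of methionine salvage and polyamine synthesis had a median of -0.16, with the spermidine synthase Srm at -0.15 ± 0.235 and Mtap at -0.32 ± 0.15. Of 3 tested taurine genes the median was 0.06. The taurine transporter Slc6a6 was at 179, 111 and 105 FPKM in GSK4112, against 230, 148 and 158 FPKM in control (-0.45 ± 0.253, limma adjusted p = 0.421, and 0.0522 with the block). Csad, which makes hypotaurine from the product of CDO1, differed by 0.37 ± 0.168. The 11 genes of molybdenum cofactor and sulfate metabolism had a median of -0.04, with Papss1 and Impad1 at -0.04 ± 0.113 and -0.14 ± 0.115.

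Of 12 tested regulators known to act on sulfur enzyme genes the median was 0.11, and none was called without the block. Nfe2l2, the gene of NRF2, was at 41.5, 40.4 and 41.5 FPKM in GSK4112 and 46.2, 38.3 and 35.3 FPKM in control (0.05 ± 0.109, limma adjusted p = 0.8466). Atf4, the stress-responsive activator, was at 162, 135 and 150 FPKM in GSK4112 and 141, 144 and 155 FPKM in control (adjusted p = 0.9282). Ddit3, a transcription factor of the stress response, was at 16.5, 19.0 and 22.3 FPKM in GSK4112, against 7.49, 9.98 and 11.2 FPKM in control, with groups that did not overlap (0.95 ± 0.166, adjusted p = 0.0591, and 0.0051 with the block). The small MAF genes, whose products pair with NRF2, went in opposite directions, Mafg by 0.45 ± 0.139 and Mafk by -0.51 ± 0.212 (0.1834 and 0.2909, and 0.0388 and 0.0207 with the block). Pparg, of the nuclear receptor PPARγ, differed by -0.62 ± 0.266 (0.3026, and 0.0221 with the block) with overlapping groups.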

How the data were processed

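For 6 libraries, the authors deposited FPKM values of 27151 genes (Ensembl IDs), with a column for each library that was matched by its name. The submitters' processing notes give the build GRCm38. No aligner, counter, annotation or strand setting is stated in the sources used here, so overlapping and antisense genes cannot be told apart. Symbols, coordinates and exon lengths came from GENCODE M21, which held 27098 of the IDs.

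FPKM times exon length gave library totals at which whole fragments (tolerance 0.01) made up 92.8 to 93.1% of the values under 500 fragments. For 6 of the 10 genes all values were whole.

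The 12181 genes averaging 1 FPKM or more entered limma (3.58.1, R 4.3.3), fitted 2-sided to log2(FPKM + 1) with an intensity trend and first tested on simulated data. An exact permutation of 3 against 3 values cannot give a p below 0.1. Deviations of same-numbered libraries from their group means correlated at 0.665, 0.326 and 0.213 over genes, all over the limit of 0.1, so a fit with the replicate block was set beside the main one. The numbers come from the sample titles, and no label says that they pair the libraries. GSK4112 replicates 2 and 3 correlated better with the control library of the other number (0.53 and 0.357). Alternatives changed the pseudocount, filter, scaling, trend, weights, block and libraries. Genes, lists and tests were chosen with earlier results of these data known. Besides the 10 genes, the rule named each called gene of a list and the 2 most abundant where fewer than 2 were called. Sequences are from RefSeq (GRCm38.p6) and GENCODE M21, and transcripts were compared with BLAST 2.17.0.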

Additional observations from a re-analysis of the deposited data

How the results depend on the processing

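Among the 20 alternatives, Tst stayed above and Vnn1 below 0 in all, and the calls that ended are given with those genes. Mpst was called in 4 and Cth in 5 of theirs, and Cbs, Ethe1, Suox, Cdo1, Gclc and Gclm in none. The direction turned for Cdo1 without control replicate 1 (0.11, with a range of -0.36 to 0.11 over libraries left out) and without both replicate 1 libraries (0.08, and 0.08 with the replicate block), and for Suox without control replicate 2 (-0.01) and control replicate 3 (-0.04, with a range of -0.04 to 0.26). The count of 126 genes called over all genes was 26 without a filter, 830 with sample weights (470 higher and 360 lower, against 50 and 76), 839 with the replicate block and 856 without both replicate 1 libraries. It was 786 with the block and median-of-ratios scaling and 1139 with the block and without both replicate 1 libraries, both added after the data were seen. With 1 library left out it ranged from 0 to 153. It was 8 without control replicate 2, and 0 in limma without control replicate 3, GSK4112 replicate 2 or GSK4112 replicate 3 (1843, 1224 and 1318 genes at an unadjusted p under 0.05). Of the 78 other sulfur genes, where 0 were called, 10 were called with the replicate block, 5 with sample weights (Chac1, Ctns, Ddit3, Ggt5 and Slc3a2), 2 with a mean FPKM of at least 5 (Ddit3 and Slc3a2), 1 with quantile normalization and 1 with limma-voom (Slc3a2 in each). Without both replicate 1 libraries 7 of the 78 were called, beside 856 of 12181 genes. With the block and median-of-ratios scaling 10 were called, beside 786 of 12181. With the block and without both replicate 1 libraries 6 were called, beside 1139 of 12181. Under median-of-ratios scaling the block called Mtap and Slc6a6 lower, and Ctns and Mafg were not called. With 1 library left out the count was 0 to 1, the 1 being Slc3a2 without control replicate 1 (beside 138 of 12181 genes). The cause of these shifts was not tested. Cdo1, Cth and Cbs had 17 to 416 fragments per library. Their SEs (0.26, 0.189 and 0.173) were larger than those of Tst (0.135) and Vnn1 (0.0862). Ethe1 had an SE of 0.0921 at 138 to 169 fragments, and Gclc the largest SE of the 10 genes (0.325) at 1197 to 2989. The part of fragment number in these SEs was not tested.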

Other observations

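Of the other genes within 50 kb of Tst and Mpst, Kctd17 was at 32.5 ± 2.58 FPKM in GSK4112 and 28.1 ± 2.06 FPKM in control, with overlapping groups (limma adjusted p = 0.3384). Tmprss6 was below the filter, at 0.432 ± 0.0419 FPKM in GSK4112 and 0.454 ± 0.0919 FPKM in control, with overlapping groups. Csf2rb, a cytokine receptor subunit gene 45708 bases from Tst and named after its values were seen, was at 3.32, 3.46 and 3.26 FPKM in GSK4112, against 1.17, 0.73 and 0.542 FPKM in control (log2 difference 1.28, limma adjusted p = 0.0341, n = 3 per group). The sequence it shares with its paralog Csf2rb2 was not examined, so the value is given as uncertain.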
